A study of Mus musculus with 6 samples.

Results

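Grhl2, Grhl3, Ovol1, Ovol2, Elf3, Ehf, Klf5, Esrp1 and Esrp2 are transcription and splicing regulators of epithelia, and their signals were compared between sorted cells of the mouse genital tubercle. They were taken by name: every probe set annotated to 1 of these 9 genes was included, 19 probe sets of the 34945 that carry a single gene name, for 9 of 18193 genes. The tubercle is the bud from which the penis or clitoris forms. The study asked how the urethral plate epithelium, the sheet of Shh-expressing cells along its midline, differs in transcripts from the remaining tubercle cells. All embryos were at 12.5 days post coitum, on a mixed background with both sexes pooled, and all carried the Shhtm1(EGFP/cre)Cjt allele, which makes a GFP and Cre protein from the Shh locus, together with the Gt(ROSA)26Sortm3(CAG-EYFP)Hze reporter. The reporter-positive group held cells sorted for fluorescence (3 arrays) and the reporter-negative group the other cells of the dissected tubercle (3 arrays). Because Cre switches the reporter on for good, the positive group takes in cells that expressed Shh earlier as well as at the time of sorting. Each array was made from pooled littermates; the pools held 3 (replicate 1), 5 (replicate 2) and 2 embryos (replicate 3) in either group. Each probe set had 1 deposited intensity per array.

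Grhl2 and Grhl3 are grainyhead-like transcription factors that switch on junction genes of epithelia, and Grhl3 is also known for its part in closure and barrier formation of surface epithelia. Ovol1 and Ovol2 are zinc finger repressors that hold down genes of the mesenchymal state such as Zeb1. Elf3 and Ehf are epithelial members of the ETS family, and Klf5 is a zinc finger activator found in proliferating epithelial cells. Esrp1 and Esrp2 are RNA-binding proteins that set the epithelial splice forms of transcripts such as Fgfr2 and Cd44. A probe set sums over the splice forms it matches, so these arrays measured how much of the regulators' RNA was present and not the splicing they direct.

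Overall array brightness varied, and positive replicate 3 stood apart. Among 27 bacterial controls for which no RNA was spiked in, the brightest read 1.12 to 8.28 on the 6 arrays and is used here as the background of its own array. Named probe sets exceeded it in 24.6% of cases on positive replicate 3 and in 44.0% to 59.3% on the other 5. Spearman correlations across named probe sets, which are not independent replicates, were 0.325 to 0.345 between that array and the others and 0.716 to 0.862 among the others. The fits of the 9 regulators are therefore given for 6 arrays and for the 5 without it. Shh and Krt8, a keratin of simple epithelia, checked the sort: their log2 differences were 5.03 and 4.46 in 6 arrays (limma, adjusted p = 0.0122 and 0.0144) and 4.96 and 4.35 in 5 arrays (4.44e-05 and 7.32e-05). The labels do not say whether a positive and a negative array share a pool, and p-values measure only the spread between these arrays. In such bulk samples fewer cells of a type and less RNA per cell cannot be told apart.

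Esrp1, Klf5 and Grhl3 were higher in reporter-positive cells when the dim array was left out, Grhl2 and Esrp2 pointed the same way without passing, and Ovol1, Ovol2, Elf3 and Ehf were near background. In the 5 arrays limma called 3 of the 7 members tested, all higher, where 0.552% of 13960 genes were called higher and 0.0501% lower. Unadjusted, 5 of the 7 had a p under 0.05 on the higher side, where 5.41% of genes did. After normalization the groups did not overlap for 6 of the 7, where 13.2% of genes did. These 6 included Ovol1, near background, whose groups overlapped without normalization between arrays. In the 6 arrays limma called none of 8 members, where 0.0142% of 14071 genes were called higher. There 5 members had an unadjusted p under 0.05 in the direction of higher signal, where 2.3% of genes did. With array weights, which gave positive replicate 3 a weight of 0.0973 against 0.645 to 5.17 for the others, limma called 5 members over the 6 arrays, where 1.81% of genes were called higher. Fitted over every probe set, 3 member probe sets passed in the 5 arrays and 0 in the 6, where 0.352% and 0.0286% of all probe sets were called higher. All 3 positive arrays lay above all 3 negative arrays for 4 of the 8 members tested after normalization, Grhl2, Klf5, Esrp1 and Esrp2, where 6.29% of genes did. Ovol2, below the filter and not tested, separated as well after normalization, but was below background on every array. The members tested had a median log2 difference of 1.40 in 6 arrays and 1.25 in 5, beside -0.03 and 0.00 (-0.0024) over all genes tested. The filter on low values uses the mean over both groups, so a dim gene could pass through its positive arrays alone. The counts and medians of members tested thus describe only the members that passed.

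**Figure D1:**
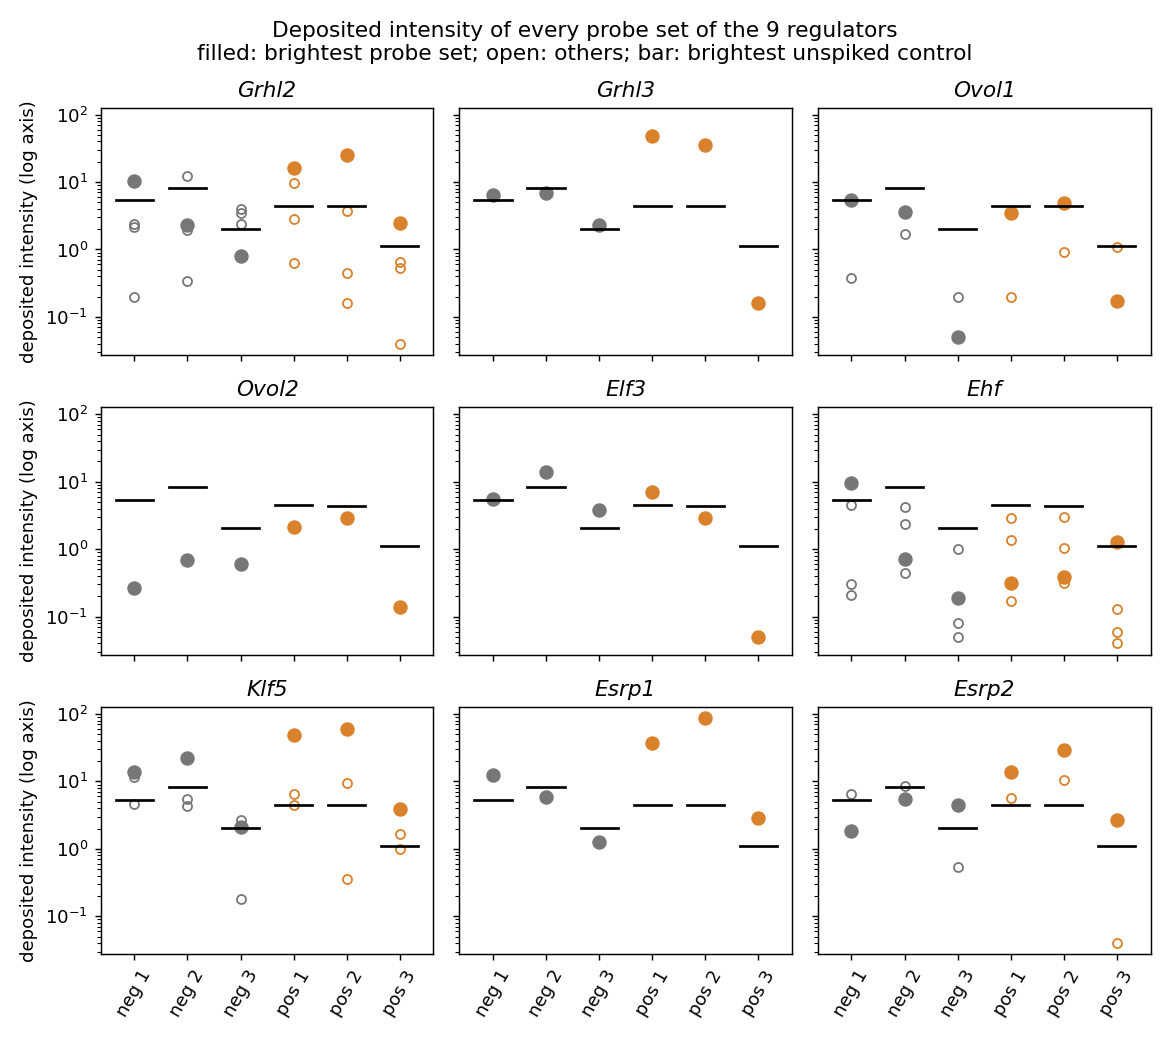
Deposited intensity (log axis) of each of the 19 probe sets on the 3 reporter-negative (grey) and 3 reporter-positive (orange) arrays; filled points are the probe set with the highest mean normalized signal of each gene, open points the others, and black bars the brightest unspiked control of that array. Esrp1, Klf5, Grhl2 and the brighter Esrp2 probe set lie above the bar on all 3 positive arrays, Grhl3 on 2 of them, and Ovol2 on none.

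Esrp1, the main epithelial splicing regulator of the pair, had 1 probe set. It read 37.6, 86.5 and 2.83 in positive replicates 1, 2 and 3 as deposited, and 12.5, 5.89 and 1.25 in negative replicates 1, 2 and 3. Against the brightest unspiked control of the same array it stood at 8.41, 19.6 and 2.53 times in the positive arrays and at 2.34, 0.711 and 0.616 times in the negative ones. So it was above background on every positive array and on 1 negative array. On the scale log2(quantile-normalized signal + 16), Esrp1 measured 6.77 ± 0.85 (SD, n = 3) in positive and 4.35 ± 0.18 (SD, n = 3) in negative arrays. The groups did not overlap, and the difference of 2.42 (SE 0.46) ranked 14th of 14071 genes but did not pass (limma, adjusted p = 0.284). In the 5 arrays it was 2.31 (SE 0.37, 95% interval 1.51 to 3.11) and passed (adjusted p = 0.0106). The 5-array call was lost without negative replicate 3 (adjusted p = 0.0720), and held in 9 of 15 alternatives (adjusted p from 2.26e-06 to 0.99971). Without positive replicate 2, which left 1 positive array, the difference was 1.66 and did not pass.

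Esrp2, its paralogue with overlapping RNA targets, had 2 probe sets. The brighter gave 13.8, 29.7 and 2.70 on positive arrays 1 to 3 and 1.82, 5.40 and 4.47 in the negative ones. As deposited, positive replicate 3 was thus below negative replicates 2 and 3, and the groups separated only after normalization, with 4.88, 5.95 and 7.20 against 4.09, 4.23 and 4.78. The same held for Esrp1, Klf5 and Grhl2: without normalization 0 members were higher without overlap in 6 arrays, where 0.115% of genes were. The log2 difference was 1.64 (SE 0.54, adjusted p = 0.725, limma) in 6 arrays and 1.15 (SE 0.33, 95% interval 0.44 to 1.87, adjusted p = 0.221) in 5. Among 15 alternatives to the 5-array fit it passed in 3 (adjusted p from 0.000575 to 0.99971), 1 of them without positive replicate 1 (difference 1.77). That fit left 1 positive array, as did the fit without positive replicate 2, where the difference was 0.62. The dimmer Esrp2 probe set, whose suffix marks probes shared between transcripts, read 5.66, 10.4 and 0.04 against 6.53, 8.45 and 0.53, and differed by 0.22 in 6 arrays and 0.50 in 5.

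Klf5 had 3 probe sets that did not show the same size of difference. The brightest read 48.3, 60.1 and 3.87 in positive replicates 1, 2 and 3 and 13.6, 22.5 and 2.09 in the negative ones, above background on all 6 arrays. It was the only regulator of the 9 with that probe set detected throughout both groups. After normalization Klf5 measured 6.96 ± 1.003 against 4.56 ± 0.20 (SD, n = 3 each), with no overlap. The difference was 2.41 (SE 0.51, adjusted p = 0.406, limma) in 6 arrays. In the 5 arrays it was 2.00 (SE 0.31, 95% interval 1.33 to 2.66) and passed (adjusted p = 0.00801). The other 2 Klf5 probe sets differed by 0.66 and 0.17 in 6 arrays and 0.36 and 0.03 in 5, with overlapping groups. Averaging the 3 probe sets gave 0.79 in 5 arrays, which did not pass (adjusted p = 0.157). The call was also lost without negative replicate 3 (adjusted p = 0.0523), and held in 9 of 15 alternatives (adjusted p from 2.96e-05 to 0.99971). Without positive replicate 2, which left 1 positive array, the difference was 1.71 and did not pass.

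Grhl3 was higher in positive replicates 1 and 2 and below background in positive replicate 3. Deposited values of its single probe set were 48.3, 35.3 and 0.16 on the positive arrays (replicates 1 to 3) and 6.35, 6.91 and 2.31 in negative ones. The first 2 positive arrays stood at 10.8 and 8.01 times their brightest unspiked control, the third at 0.143 times, and the negative arrays at 0.834 to 1.18 times. Over 6 arrays it measured 5.48 ± 1.08 against 4.33 ± 0.05 (SD, n = 3 each), the groups overlapped, and the difference of 1.15 (SE 0.49) did not pass (limma, adjusted p = 0.725). In the 5 arrays it was 1.92 (SE 0.26, 95% interval 1.37 to 2.48, adjusted p = 0.00250), ranking 41st of 13960. This call held in 14 of 15 alternatives (adjusted p from 3.72e-06 to 0.99971) and was lost with values not normalized between arrays. The 14 took in fits without each negative array, and fits without positive replicate 1 or 2, which left 1 positive array. Those last fits gave differences of 2.00 and 1.99, with no spread measured within the positive group.

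Grhl2 had 4 probe sets, none of which passed in either fit, and 1 of which had groups that did not overlap. The brightest read 16.3, 24.9 and 2.47 in positive replicates 1, 2 and 3 and 10.5, 2.33 and 0.79 in negative ones, and was above background on all 3 positive arrays and on negative replicate 1. After normalization it read 5.00, 5.77 and 6.999 against 4.48, 4.10 and 4.16, without overlap. The difference was 1.68 (SE 0.48, adjusted p = 0.725, limma) in 6 arrays. In the 5 arrays it was 1.25 (SE 0.28, 95% interval 0.66 to 1.84, adjusted p = 0.0608), which did not pass the threshold of 0.05. Among 15 alternatives it passed in 3 (adjusted p from 0.00242 to 0.99971), 1 of them without positive replicate 1 (difference 1.71). That fit left 1 positive array. The difference was 0.34 without positive replicate 2, again with 1 positive array, and 0.28 (adjusted p = 0.639) as the mean of its probe sets. The other 3 Grhl2 probe sets differed by -0.06 to 0.01 in 6 arrays and by -0.20 to 0.15 in 5, of which 1 was above background on 3 of 6 arrays and 2 on negative replicate 3 only.

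**Figure D2:**
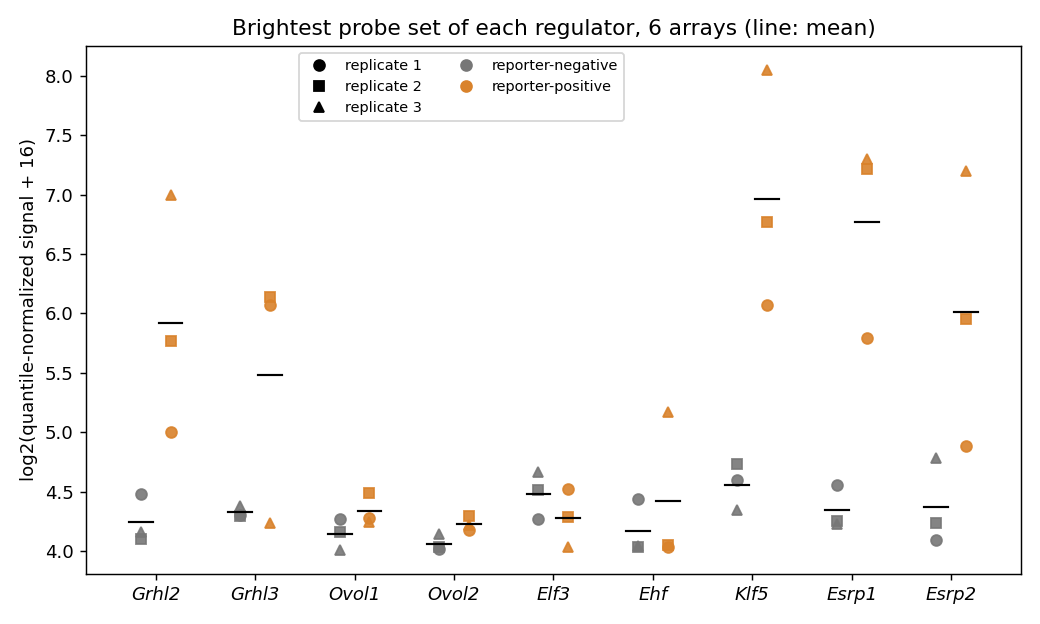
Normalized signal, log2(quantile-normalized signal + 16), of the probe set with the highest mean of each regulator on 3 reporter-negative (grey) and 3 reporter-positive (orange) arrays, with the mean of each group as a line and replicates by symbol. Positive replicate 3 (triangle) is the highest positive array for Klf5, Grhl2, Esrp2 and Esrp1 and the lowest for Grhl3, at 4.23; Ovol2 was below the filter and not tested.

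Elf3 and Ehf, the ETS factors, were not detectably higher. Elf3 read 7.09, 2.85 and 0.05 in positive replicates 1, 2 and 3 and 5.52, 13.7 and 3.84 in negative ones, so it was above background on all 3 negative arrays and on 1 positive array. Its difference was -0.20 (SE 0.20, 95% interval -0.66 to 0.26) in 6 arrays and -0.09 (95% interval -0.53 to 0.36) in 5 (limma, adjusted p = 0.753 and 0.941). The sign in the 5 arrays turned in 3 of 15 alternatives, and no scaling alternative turned it. Ehf was not measurable here: 3 of its 4 probe sets were below background on all 6 arrays. The fourth, of a type that can cross-hybridize, exceeded it only on negative replicate 1 at 9.45 and positive replicate 3 at 1.27. That probe set differed by 0.24 (95% interval -0.41 to 0.90) in 6 arrays, and no Ehf probe set passed the filter in 5.

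Ovol1 and Ovol2 were at the limit of detection. The brighter Ovol1 probe set gave 3.47, 4.84 and 0.17 on positive arrays 1 to 3 and 5.49, 3.55 and 0.05 in negative ones, just above background on positive replicate 2 and negative replicate 1 only. The difference was 0.19 (95% interval -0.14 to 0.53) in 6 arrays, where the sign turned without normalization (-0.01), and 0.27 (95% interval -0.08 to 0.63) in 5 (limma, adjusted p = 0.725 and 0.676). Ovol2 read 2.12, 2.90 and 0.14 against 0.27, 0.68 and 0.61 and was below background on every array, so no level was established in either group. It was below the filter on low values, and its normalized signals of 4.17, 4.29 and 4.22 against 4.01, 4.03 and 4.14 did not overlap. Without the filter its difference was 0.16 in 6 arrays and 0.20 in 5, and neither passed (limma, adjusted p = 0.756 and 0.669). A pseudocount of 16 compresses differences this far below it, so these values bound nothing about the fold change of so dim a gene.

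**Figure D3:**
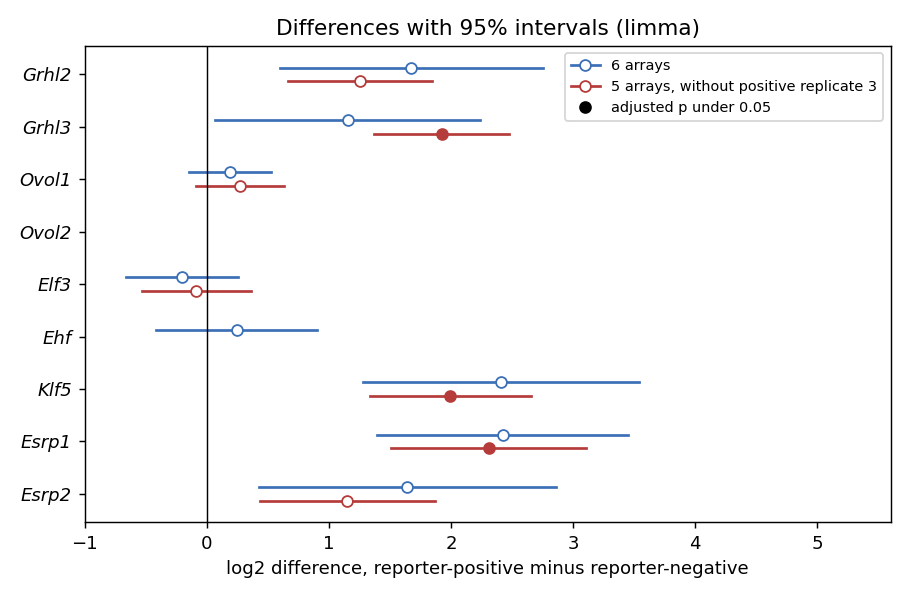
Log2 difference, reporter-positive minus reporter-negative, with 95% intervals from limma, for 6 arrays (blue) and for 5 without positive replicate 3 (red); filled points passed an adjusted p of 0.05. The 3 filled points are Grhl3, Klf5 and Esrp1 in the 5 arrays; Ovol2 was not tested, and Ehf in 6 arrays only.

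RefSeq promoters (build GRCm38.p6) matched 3 of the 9 genes by symbol, Grhl3, Ovol2 and Elf3. The 250 bases before the start site are shown for Grhl3, which passed in the 5 arrays, and for Elf3, which did not. They lie at chr4:135573633-135573882 and chr1:135258473-135258722, both on the minus strand and written 5′ to 3′, with capitals marking matches to the motifs searched.
Grhl3: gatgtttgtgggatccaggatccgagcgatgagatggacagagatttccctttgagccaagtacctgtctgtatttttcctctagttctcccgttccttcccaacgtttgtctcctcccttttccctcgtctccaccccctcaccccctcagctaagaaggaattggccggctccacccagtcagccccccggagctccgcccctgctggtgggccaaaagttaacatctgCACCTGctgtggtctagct
Elf3: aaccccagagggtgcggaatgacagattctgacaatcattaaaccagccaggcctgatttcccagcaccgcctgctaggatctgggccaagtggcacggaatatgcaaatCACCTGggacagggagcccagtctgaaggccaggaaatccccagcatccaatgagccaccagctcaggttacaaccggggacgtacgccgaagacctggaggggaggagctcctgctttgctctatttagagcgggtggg
Both held 1 match to CACCTG, the E-box letters that Zeb and Snail repressors recognise, starting at position -19 from the start site in Grhl3 and -140 in Elf3. These letters occur on either strand in 17.2% of 32851 promoter windows of this length. Neither window held ACCGGT, the grainyhead core (1.86% of windows), CCGTTA of Ovo proteins (2.18%), CCGGAAG of ETS factors (6.91%) or CACACCC of Klf factors (6.93%). The Ovol2 window held 1 CACACCC, and no match overlapped another. A match is a run of letters and not a bound site.

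The size of the differences varied between the 3 positive arrays, and so did the markers of other cell types. Relative to the negative mean, the median over the 8 members tested was 0.63, 1.55 and 1.88 in positive replicates 1, 2 and 3. Esrp1 was 1.44, 2.87 and 2.96 above it, Klf5 1.52, 2.21 and 3.49, Grhl2 0.75, 1.52 and 2.75 and Esrp2 0.52, 1.58 and 2.83. On this normalized scale positive replicate 1 was thus lowest for all 4, and Grhl3 was not so ordered, at 1.75, 1.81 and -0.09. As deposited, positive replicate 3 was the lowest positive array for Esrp1, Klf5, Grhl2 and Esrp2, at 2.83, 3.87, 2.47 and 2.70. It was also the lowest for these relative to the background of its own array. Summed normalized signal of 8 simple epithelium markers was 794, 1893 and 1890 in positive replicates 1, 2 and 3 and 55.5 to 59.7 in negative arrays. The 9 mesenchyme markers summed to 2303, 171 and 384 in positive replicates 1, 2 and 3 and to 2234 to 2939 in negative arrays. The sum of positive replicate 1 thus lay within the negative range. For 3 of the 9, Col1a1, Col1a2 and Prrx1, every positive array lay below every negative array, as for 984 of 14071 genes. None of the 9 was called in either fit, and 1 had a positive difference in 5 arrays (Dcn, 0.02) and none in 6. The part of these markers in the differences of the regulators was not tested.

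Of the other cell types, markers of blood and some of stratified epithelium also differed. The 5 erythroid markers measured summed to 627 to 1495 in positive and 3124 to 5998 in negative arrays. All 5 were called lower in the 5 arrays, where 0.0501% of genes were, and none in the 6. The 5 leukocyte markers summed to 54.9 to 134 against 9.51 to 32.6, with C1qa, C1qb and Csf1r called higher in the 5 arrays and 0 in the 6. Over all genes tested 0.552% and 0.0142% were called higher. The other leukocyte markers did not pass: Ptprc differed by -0.12 in 6 arrays and 0.007 in 5, and Cd68 by 0.12 in 5. The 5 endothelial markers summed to 13.1 to 35.6 against 9.07 to 21.96, with none called and Pecam1 below background on every array. The 10 markers of surface ectoderm and stratified epidermis summed to 407 to 519 against 116 to 184. Of 8 tested, 3 were called higher in the 5 arrays, Krt15, Sfn and Perp, and none in the 6. The epidermal keratins Krt5, Krt14 and Krt10, each above background on all 3 negative arrays, did not pass and differed by 0.11, -0.57 and -0.58 in 6 arrays and by 0.40, -0.30 and -0.22 in 5. Krt1 and Ivl, which mark later epidermal layers, were below background on every array. How these cells bear on the regulators was not tested either.

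Close relatives of the 9 regulators were not called in either fit. Of 12 listed relatives 10 were tested, 6 with a positive difference in 6 arrays and 9 in 5, beside 47.2% and 49.6% of all genes. Without overlap, 1 was higher in 6 arrays and 5 in 5, beside 6.29% and 13.2% of genes. Elf5 came nearest to a call, at 0.96 in 5 arrays (SE 0.21, adjusted p = 0.0635, limma) and 0.69 in 6. Without positive replicate 3 Elf1, a broadly expressed ETS factor, differed by 1.39 (SE 0.37, adjusted p = 0.157, limma), Klf7 by 0.97 (SE 0.31, adjusted p = 0.276) and Elf2 by -1.13 (SE 0.41, adjusted p = 0.377). In 6 arrays they differed by 0.76, 0.39 and -1.35. Repressors of the epithelial state were on the lower side without passing. Of 7 tested, 1 had a positive difference in either fit, and their median was -0.63 in 6 arrays and -0.47 in 5. Without positive replicate 3 Twist1 differed by -1.54 (SE 0.64), Twist2 by -0.83 (SE 0.42) and Zeb1 by -0.77 (SE 0.46), with adjusted p from 0.469 to 0.670 (limma). In 6 arrays the differences were -1.29, -0.63 and -1.26.

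Junction and surface genes of epithelia, among which are known targets of these regulators, were higher. This list shares Cdh1, Epcam, Cldn6 and Cldn7 with the simple epithelium markers. Of 15 genes tested in it, 10 passed in the 5 arrays and none in the 6, where 0.552% and 0.0142% of genes were called higher. A positive difference was found for 14 in both fits, beside 49.6% and 47.2% of all genes, and the medians were 1.81 and 1.94. Those with the largest differences were Cdh1, the epithelial cadherin, at 2.85 (SE 0.31, adjusted p = 0.000499, limma), Dsp of desmosomes at 2.58 (SE 0.46, adjusted p = 0.0200), and the tight junction claudins Cldn7 at 2.19 (SE 0.36) and Cldn3 at 2.02 (SE 0.30). Dsg2 at 1.49 (SE 0.49), St14 at 1.48 (SE 0.34) and Prss8 at 0.57 (SE 0.21) did not pass, and Dsc2 was the single gene with a negative difference. In 6 arrays Cdh1, Dsp, Cldn7 and Cldn3 differed by 2.0005, 2.14, 2.57 and 1.67, and Dsg2, St14 and Prss8 by 1.98, 1.95 and 0.92.

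Transcripts that Esrp proteins splice, and other splicing regulators, were not called in either direction. For 6 tested Esrp-regulated transcripts the median was 0.32 in 6 arrays and 0.02 in 5. In the latter Fgfr2 differed by 0.54 (SE 0.34), Slk by 0.28 (SE 0.31) and Cd44 by -0.12 (SE 0.21), with adjusted p from 0.692 to 0.911 (limma), and in 6 arrays by 0.98, 0.44 and -0.24. For 18 other splicing regulators the median was -0.01 in 6 arrays and -0.19 in 5. Mbnl2, a regulator of splicing in differentiated tissues, differed by 1.62 (SE 0.43, adjusted p = 0.161, limma), Celf2 by 0.996 (SE 0.34, adjusted p = 0.325) and Ptbp2 by -1.19 (SE 0.40, adjusted p = 0.314) in the 5 arrays. Over 6 arrays these were 1.26, 0.44 and -1.22.

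**Figure D4:**
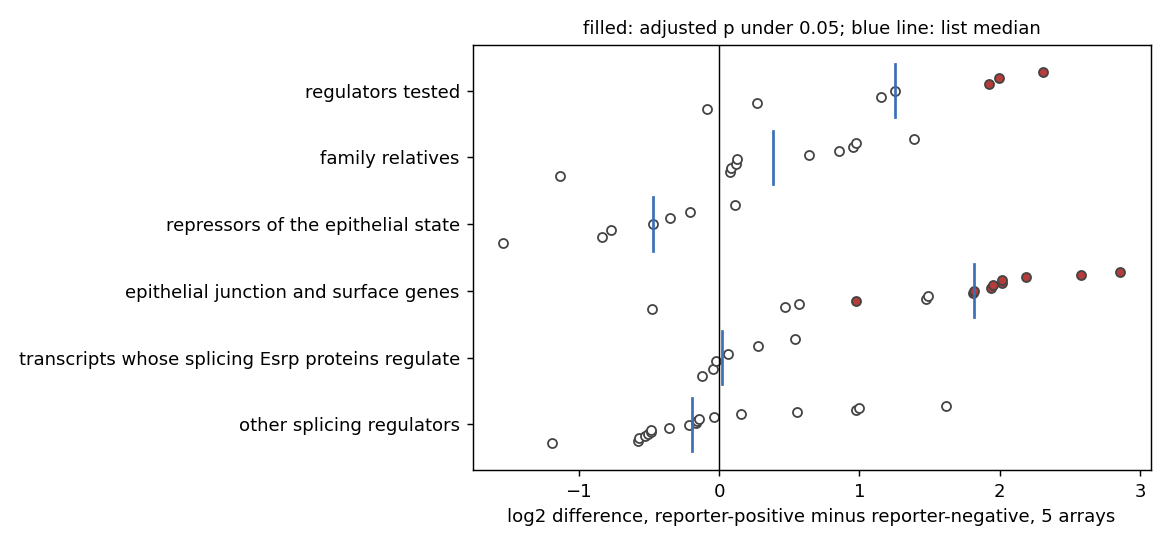
Log2 difference, reporter-positive minus reporter-negative, in the 5 arrays without positive replicate 3 for the 7 regulators tested and 5 related gene lists; each point is a gene, filled where the adjusted p was under 0.05, and the blue line is the list median. Filled points occur among the regulators (3) and the epithelial junction and surface genes (10) and in no other list.

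Profiles over the arrays showed which regulators varied together. Over 6 arrays Pearson's r of normalized signal was 0.977 between Grhl2 and Klf5, 0.961 between Klf5 and Esrp1, 0.958 between Grhl2 and Esrp2 and 0.893 between Esrp1 and Esrp2. Grhl3 correlated at 0.126 to 0.483 with these 4, and at 0.807 to 0.964 over the 5 arrays without positive replicate 3. Among 4796 genes compared over 6 arrays (4797 for Ovol1, Elf3 and Ehf), the profiles nearest to Esrp1 were those of Hook1 (0.998), Slc40a1 (0.995) and 1810019D21Rik (0.993), and those nearest to Klf5 were Map1b (0.995), Sema3c (0.994) and Krba1 (0.993). Nearest to Grhl2 were Slc39a10 (0.994), Ccdc88c (0.993) and Atp1b1 (0.992), to Grhl3 Aldh1a7 (0.998), Pf4 (0.988) and Ppbp (0.975), and to Esrp2 Samm50 (0.993), 4933434E20Rik (0.993) and Capn15 (0.989). Ovol1, Elf3 and Ehf were nearest to Rreb1 (0.991), Ap1m1 (0.989) and 8030423J24Rik (0.996). Over the 5 arrays and 1680 genes (1681 for Ovol1 and Elf3) the nearest were Elf5 and Slc40a1 for Esrp1 (both 0.999), Plec for Klf5 (0.999), Fxyd3 for Grhl2 (0.999), Arhgef19 for Grhl3 (0.998), Tagln2 for Esrp2 (0.996), Elavl2 for Ovol1 (0.995) and Ap2m1 for Elf3 (0.989). These r values took in both groups without removing the group means, so a shared group difference also raises them. With so few arrays, all normalized together, and so many genes searched, such values are descriptions only.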

How the data were processed

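RNA from the sorted cells was read on biotin-labelled Affymetrix mouse arrays, per the labels' protocols. The deposited intensity values were linear, 1 per probe set and array. GCOS is named in the submitters' processing notes of 1 of 6 samples, without a version; for summarization, scaling and filters nothing is given in the sources used here. Of 45101 probe sets 64 controls were set aside. The other 45037 were quantile normalized, because array medians of log2(signal + 16) spread over 0.50, and transformed to log2(signal + 16), a pseudocount that understates differences of dim genes. Of these, 34945 had 1 gene, 932 several and 9160 were unnamed here; symbols came from GEO's platform annotation, updated through the RefSeq gene table of GRCm38.p6 for 34741. The probe set with the highest mean stood for each of 18193 genes, and genes whose mean exceeded the lowest 30% of named probe sets entered the test (14071 in 6 arrays, 13960 in 5). In R 4.3.3, limma 3.58.1 (lmFit, then eBayes with its trend option) gave differences, 95% intervals and Benjamini-Hochberg adjusted p-values over all genes tested, with a threshold of 0.05. The fit was tested on simulated data.

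The members, lists and tests were chosen with earlier results of these data known. Named genes were the 9 members, Shh and Krt8, and from each list up to 4 called genes and 3 others with the largest 5-array difference, with the 3 nearest profiles by Pearson's r among genes with an SD of at least 0.5, of which 1 is given for some members. Dsc2, Elf5 among the relatives and the markers were named after their values were seen. Alternatives were other normalization, pseudocounts of 1 and 64, no filter, the mean of probe sets, a block for pool size, array weights, no trend and leaving out each array. The number of arrays limits the precision.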

Additional observations from a re-analysis of the deposited data

How the results depend on the processing

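Without normalization between arrays the median difference of all genes moved to -0.48 in 6 arrays and -0.24 in 5, and with median centring to -0.28 and -0.14; a pseudocount of 1 moved it to -0.16 in 6 arrays. Member differences should be read against these shifts. In 6 arrays the count of members higher without overlap was 4, where 6.29% of genes were. It became 0 without normalization and 2 with median centring, where 0.115% and 2.93% of genes were. The count called higher, 0, became 5 with array weights, where 0.0142% and 1.81% of genes were called higher. It was 0 to 3 when 1 array was left out, where 0% to 0.552% of genes were. Over every member probe set it was likewise 0 to 3, where 0% to 0.352% of probe sets were. The members' median difference of 1.40 became 0.57 without normalization, 0.76 with median centring, 3.29 with a pseudocount of 1 and 0.63 with a pseudocount of 64. In 5 arrays the count called was 3, where 0.552% of genes were called higher. It became 0 without normalization, 1 without a filter and 1 with the mean of probe sets, where 0%, 0.0934% and 0.189% were. With median centring it was 2 and without a trend 2, where 0.445% and 0.143% were. Array weights gave 5, where 1.38% were. Leaving out 1 negative array gave 1 to 3, where 0.143% to 0.435% were. A group left with 1 array is assumed to vary like the other. The 5-array median of 1.25 became 2.75 and 0.498 with pseudocounts of 1 and 64, 0.81 with the mean of probe sets, and 0.62 to 1.77 when an array was left out. Differences that changed sign were Ovol1 without normalization (-0.0132), Ehf with array weights in 6 arrays (-0.0619), and Elf3 in 5 arrays with the block (0.0152) and when an array was left out (-0.224 to 0.0480). The cause of these changes was not tested.

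A replicate block for pool size called 0 members in 6 arrays and 5 in 5 arrays, where 0.0142% and 2.03% of genes were called higher. In the 5 arrays Grhl2 and Esrp2 joined the other 3 (adjusted p = 0.00242 and 0.000575, limma), but negative replicate 3 is alone in its block. Same-numbered arrays of the groups correlated at 0.127, 0.033 and 0.109 in their deviations, and differently numbered ones at -0.131 to 0.063. Pool sizes matched by number, and the sample titles of same-numbered arrays end in consecutive numbers, but the labels name no shared pool. The main fits therefore used no pairs, and whether the arrays are paired was not settled.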
